A study of Mus musculus with 24 samples.

Results

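The genes described here are the 38 non-coding genes of the mouse chromosome 16 (Mmu16) segment that is present in 3 copies in Ts65Dn mice and in 2 copies in wild-type (wt) littermates. They were taken from a table of raw counts for 55385 genes: of the 297 genes of the table that GENCODE vM21 (GRCm38) places in the segment, 161 are annotated with a biotype other than protein coding, 54 of these had no count, 69 had 1 to 23 counts, and the 38 that reached 24 counts over all 24 libraries were kept. They lie at chr16:84513051-97997419. Of them, 27 are long non-coding RNAs (13 antisense, 5 lincRNA, 5 processed transcript, 2 bidirectional promoter lncRNA, 1 sense intronic and 1 sense overlapping), 7 are pseudogenes (6 processed pseudogenes and the polymorphic pseudogene Mx2), and 4 are single-exon models of the class TEC, transcribed stretches that await experimental evidence.

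The RNA-Seq libraries came from the hippocampus (HIP) and the entorhinal cortex (EC) of 6 male Ts65Dn mice and 6 male wt littermates, aged 5 to 6 months, so that each of the 4 groups held 6 libraries and each mouse gave 1 library per region. All mice were of an F1 B6C3B background. Ts65Dn mice carry a freely segregating minichromosome that joins the Mmu16 segment to the proximal end of Mmu17, so the Mmu17 genes on it are in 3 copies as well and the effects of the 2 pieces cannot be told apart in this model. In whole tissue, a change in the number of cells that make a transcript and a change in the amount per cell cannot be told apart either.

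Long non-coding RNAs are transcripts without a long reading frame, made by RNA polymerase II and often spliced and polyadenylated. Antisense members overlap a protein-coding gene on the other strand, lincRNAs stand between genes, and divergent lncRNAs start beside a coding gene's start and run the other way. Processed pseudogenes are copies of mature messenger RNAs pasted back into the genome, and they carry a transcript only where the insertion site supplies a promoter. An extra gene copy alone, with each copy read at the same rate, gives a ratio of 1.5 between Ts65Dn and wt, and that is the ratio each gene was compared with.

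The libraries held 23128589 to 40476492 counts, of which only 287 to 953 fell on the 38 genes. The hippocampal markers followed the labels: the summed level of hippocampal genes (Prox1, C1ql2, Wfs1, Spink8, Neurod6) was 586 to 764 CPM (counts scaled to the total of the library) in HIP and 274 to 368 in EC. Pan-neuronal genes summed to 4326 to 5259 CPM in HIP and 5124 to 7018 in EC. Choroid plexus genes (Ttr, Folr1, Kl, Clic6, Kcne2, Otx2) varied most, from 56.1 to 5208 CPM between HIP libraries and from 8.57 to 51.0 in EC. Oligodendrocyte genes stood at 5108 to 8083 CPM in HIP and 1086 to 2240 in EC, astrocyte genes at 469 to 796 and 182 to 336, striatal genes at 46.3 to 78.4 and 152 to 206, meningeal genes at 19.0 to 116 and 23.9 to 55.9, microglial genes at 106 to 124 and 113 to 163, endothelial genes at 50.3 to 64.0 and 52.1 to 91.3, and erythrocyte genes at 40.2 to 138 and 97.0 to 481. The wt and Ts65Dn ranges overlapped for each of these 10 lists in both regions.

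The library labelled Ts65Dn replicate 3 stood apart in both regions. Its median level over the protein-coding genes of the segment, as a ratio to the wt mean, was 1.02 in HIP and 0.998 in EC, whereas the other 5 Ts65Dn libraries lay at 1.43 to 1.53 in HIP and 1.46 to 1.53 in EC and the wt libraries at 0.985 to 1.01 and 0.990 to 1.01. The median over the tested non-coding genes followed the same split. The library labelled Ts65Dn replicate 3 was at 1.09 in HIP and 0.728 in EC, the other 5 were at 1.28 to 1.64 and 1.32 to 1.69, and the wt libraries were at 0.798 to 1.11 and 0.848 to 1.17. Its genotype label is therefore in doubt in both regions. It was kept with its label, so each Ts65Dn value over all 6 libraries includes it, and the ratios of the tested members and of the coding genes named beside them are also given without it.

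**Figure D1:**
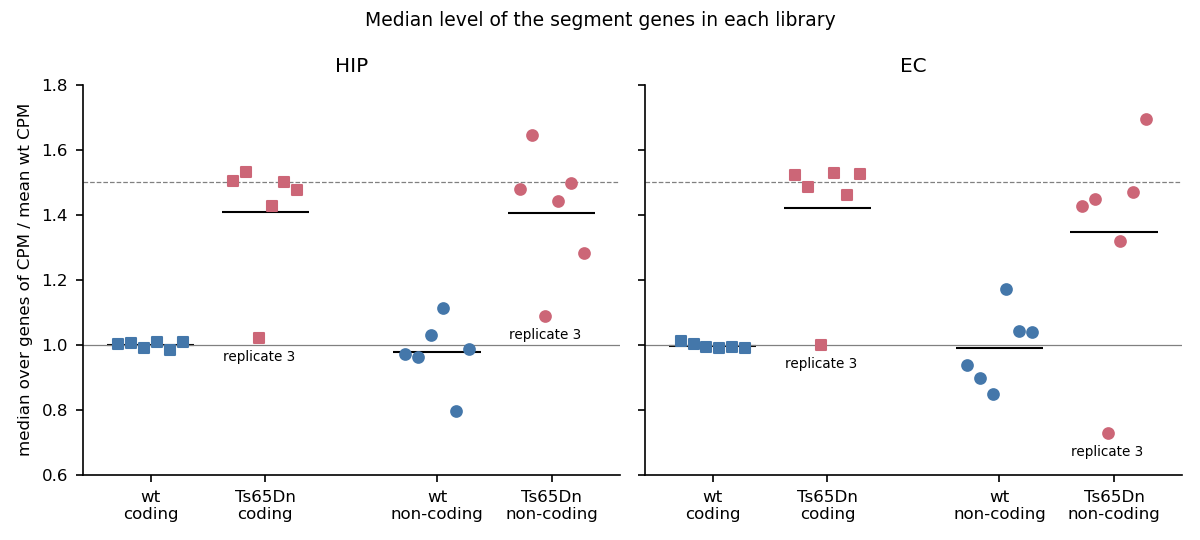
Median, over the tested genes of the segment, of each library's CPM divided by the mean wt CPM, for protein-coding genes (squares) and non-coding genes (circles) in HIP and EC; black bars are group means over 6 libraries, the solid line is 1 and the dashed line 1.5. The 5 Ts65Dn libraries other than replicate 3 lie above all wt libraries in both classes, and the non-coding medians scatter more than the coding ones.

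The non-coding genes were weakly expressed. Their median total was 110 counts over all 24 libraries, against 12508 for the 91 protein-coding genes of the segment with 24 or more counts, and 12 of the 38 reached 240 counts against 82 of the 91. One gene held 35.6% of the counts: Gm41505 (ENSMUSG00000116641), an antisense RNA of 5 exon blocks at chr16:94721894-94753438. It begins outside Kcnj6, the gene of the potassium channel subunit GIRK2, and overlaps only part of it on the other strand. Gm41505 had 4494 counts, followed by the lincRNA 2810407A14Rik with 1148 and the processed transcript B130034C11Rik with 915. Per kilobase of exon, Gm41505 was also the highest at a mean of 5.30 RPKM, and the pseudogene Gm46546, whose single exon spans 249 bases, came next at 1.43 RPKM. B130034C11Rik and the App antisense RNA Gm10791 both stood at 0.520 RPKM, Gm10785 at 0.473 and 2810407A14Rik at 0.430. Taken per kilobase of the exon stretches that no other gene's exons cover, Gm41505 stood at 7.75, Gm46546 at 1.43, Gm10785 at 0.628 and 2810407A14Rik at 0.430 RPKM. At the low end, Gm2805 and Gm30881 had 31 counts each in all 24 libraries together.

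**Figure D2:**
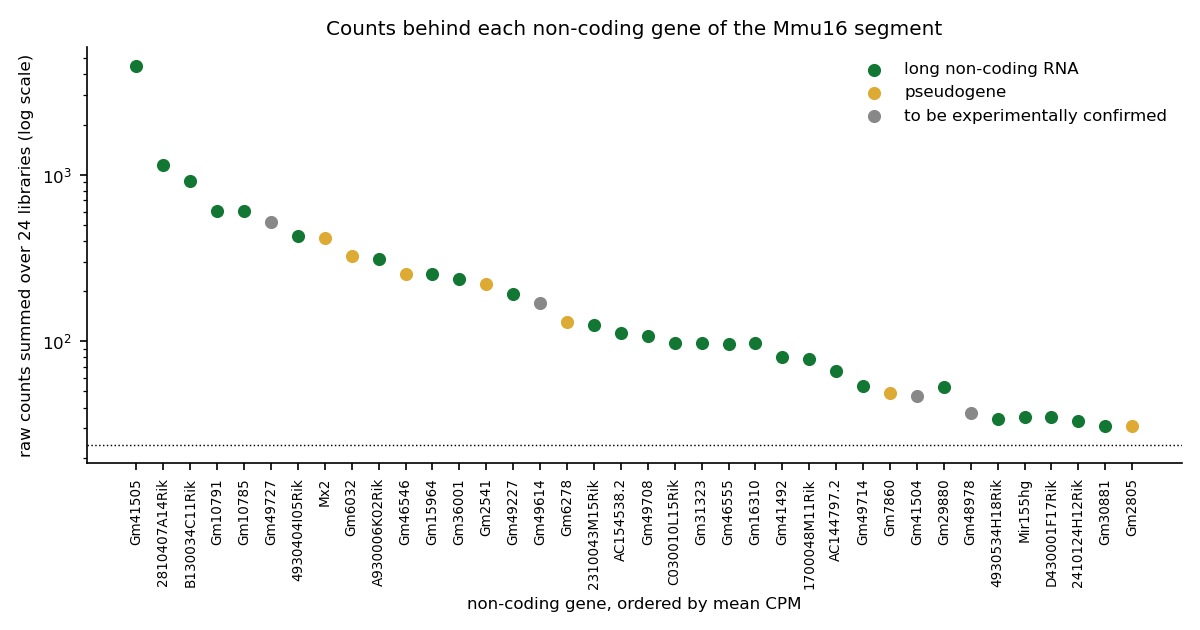
Raw counts summed over the 24 libraries (log scale) for each of the 38 non-coding genes, ordered by mean CPM and coloured by class; the dotted line is the minimum of 24 counts. The totals run from 31 to 4494, and 12 genes reach 240 or more.

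Most members share their ground with other genes. Another annotated gene overlapped 25 of the 38, exons overlapped exons for 16, and for 12 these were exons of the other strand, so that 13 genes stood free of any overlap. The labels name a kit that marks the strand, but the strand setting of the counting is not given in the sources used here. Of 477 genes of the whole table whose exons are wholly covered by exons of the other strand, 2 had 24 or more counts (0.419%), against 77.7% of the 8607 genes covered in part and 37.7% of the 46060 genes not covered. Among antisense genes the figures were 0 of 76 wholly covered, 58.9% of 1663 covered in part and 30.3% of 1220 not covered. By this measure almost no read was assigned where exons of both strands overlap, so the count of a member with shared exon stretches comes from the rest of its exons, and reads of its host there cannot be told apart from its own. For Gm41505, 31.7% of the exon length overlapped Kcnj6 exons. For 4930404I05Rik it was 43.8% (Synj1 and Paxbp1), for Gm15964 36.9% (Gart), for Gm49727 27.3% (Cfap298) and for Gm10785 24.6% (Cryzl1). The exons of Gm10791 lie in App introns without touching an App exon. Counting that used the strand would have assigned reads where exons of both strands overlap, so these counts behave as counted without it. Reads of unspliced App RNA then cannot be told apart from those of Gm10791 either. The same limit applies to other antisense members with exons over introns of a coding gene. In wt HIP, App had a mean of 2039 CPM and Gm10791 one of 0.920.

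Several members start close to a coding gene that runs the other way. RefSeq (GRCm38.p6) gave promoter windows, from 250 bases before to 50 after the annotated start, for 16 of the 38 genes, and 3 of these windows overlapped the window of an opposite gene. All 3 were rich in the dinucleotide CG, which reads the same on both strands: 20 or more CG in 300 bases were found in these 3 members and in 26.5% of the 32851 promoters of the table, whose median was 7. The windows are shown in the direction of the non-coding gene, with each CG in capitals, because each of them is also the start region of a triplicated coding gene whose ratio is set beside the member's below. The B130034C11Rik window (chr16:87495823-87496122, + strand) shares 297 bases with that of Cct8, a subunit of the cytosolic chaperonin, and holds 28 CG. The 4930404I05Rik window (chr16:91010999-91011298, + strand) lies across the start of Synj1, the phosphatase synaptojanin 1 of synaptic vesicle recycling, and holds 33. The Gm10785 window (chr16:91688648-91688947, + strand) shares 269 bases with that of Donson, a replication fork protein, and holds 42.
B130034C11Rik: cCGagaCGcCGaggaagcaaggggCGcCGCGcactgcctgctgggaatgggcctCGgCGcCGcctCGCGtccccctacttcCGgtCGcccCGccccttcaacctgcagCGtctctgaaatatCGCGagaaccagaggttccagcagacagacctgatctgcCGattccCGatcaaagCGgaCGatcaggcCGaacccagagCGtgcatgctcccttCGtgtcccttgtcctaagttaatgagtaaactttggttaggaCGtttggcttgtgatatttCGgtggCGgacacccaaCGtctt
4930404I05Rik: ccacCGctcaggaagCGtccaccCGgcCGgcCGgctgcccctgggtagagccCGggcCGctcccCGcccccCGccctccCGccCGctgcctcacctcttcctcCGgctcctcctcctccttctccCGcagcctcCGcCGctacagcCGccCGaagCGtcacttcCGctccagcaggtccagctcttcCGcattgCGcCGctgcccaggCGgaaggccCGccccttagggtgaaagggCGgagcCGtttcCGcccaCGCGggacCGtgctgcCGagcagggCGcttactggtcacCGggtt
Gm10785: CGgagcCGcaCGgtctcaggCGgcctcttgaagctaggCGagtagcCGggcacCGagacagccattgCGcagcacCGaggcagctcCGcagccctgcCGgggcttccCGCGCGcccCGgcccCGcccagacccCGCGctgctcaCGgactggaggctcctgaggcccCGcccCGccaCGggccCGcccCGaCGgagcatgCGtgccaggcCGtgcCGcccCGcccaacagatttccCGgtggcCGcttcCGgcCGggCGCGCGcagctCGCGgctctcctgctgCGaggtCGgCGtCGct

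To ask which non-coding genes follow the third copy, Ts65Dn was compared with wt in each region. No member passed the threshold of adjusted p below 0.05 (edgeR quasi-likelihood test, Benjamini-Hochberg over all genes tested), where 0.542% of 17355 genes in HIP and 1.15% of 17049 genes in EC were called higher, and 1.04% and 2.5% were called in either direction. At an adjusted p below 0.1 it was 0 in HIP and 2 in EC, 4930404I05Rik and Gm41505, against 1.03% and 2.63% of all genes. At an unadjusted p below 0.05, 7 of the 12 members tested in HIP were higher in Ts65Dn and 4 of the 11 tested in EC, against 7.23% and 9.01% of all genes, and 0 were lower. DESeq2 called 1 member in each region, 4930404I05Rik in HIP (adjusted p = 0.0494) and Gm41505 in EC (adjusted p = 0.0170), against 1.65% and 3.25% of genes called higher by it. Among the protein-coding genes of the segment, edgeR called 43 of 82 in HIP and 45 of 80 in EC, all higher. The tests were less precise for the non-coding genes, with a median standard error of 0.24 in HIP and 0.28 in EC on the log2 scale against 0.10 and 0.11 for the coding genes.

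The ratios themselves lay between 1 and 1.5 for most members. In HIP, all 12 tested members were above 1, as were 51.3% of all genes tested there and in EC, with a median ratio of 1.35, a lowest value of 1.02 (Gm6032) and a highest of 1.94 (4930404I05Rik). In EC, 10 of 11 were above 1, with a median of 1.39 and a range from 0.880 (Gm6032) to 1.93 (4930404I05Rik). The protein-coding genes of the segment had medians of 1.41 and 1.42, the non-coding genes of the rest of chromosome 16 medians of 1.04 (70 genes) and 1.02 (63 genes), and all genes tested a median of 1.003 in both regions. Without the library labelled Ts65Dn replicate 3, the members' medians were 1.44 in HIP (13 tested, Gm36001 added) and 1.47 in EC (12 tested, Gm15964 added). They stood beside 1.48 and 1.48 for the coding genes. Without it, edgeR called 0 members in HIP and 2 in EC, where 1.06% and 1.42% of all genes were called higher. Of the protein-coding genes of the segment, 59 of 83 and 62 of 81 were called higher in these fits.

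**Figure D3:**
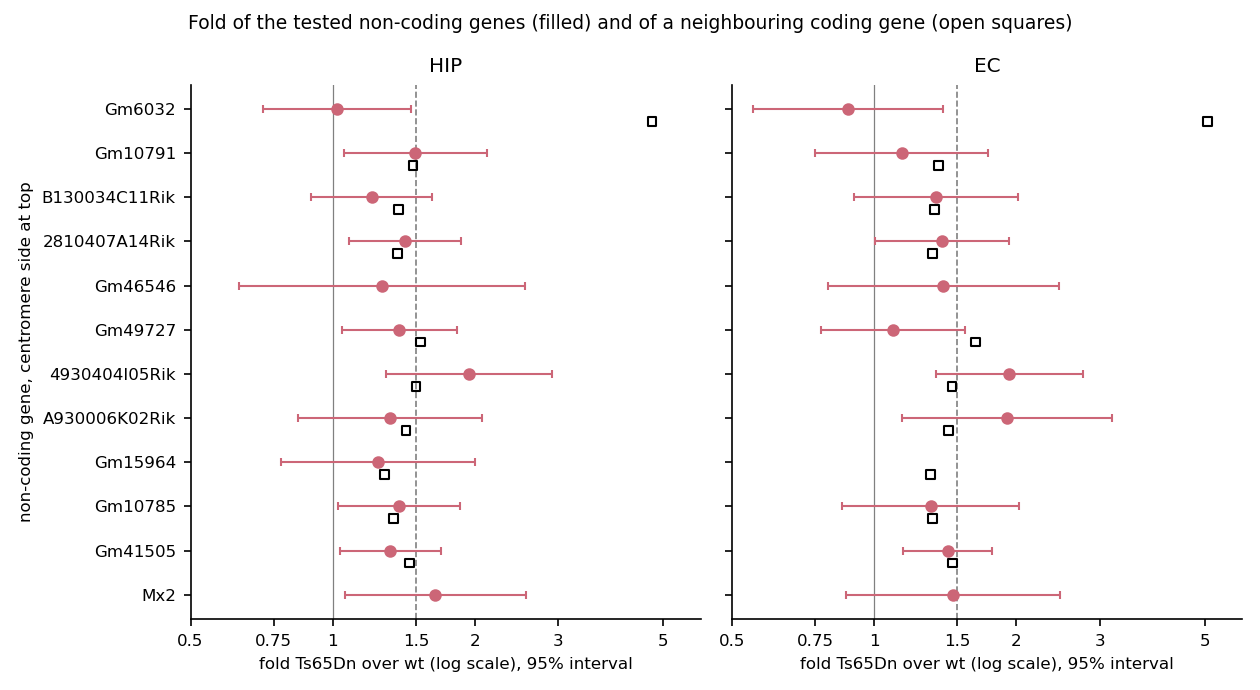
Ratio of Ts65Dn to wt (log scale) with 95% intervals for the non-coding genes tested in HIP (12) and EC (11), ordered along the chromosome; open squares are the ratio of an overlapping or nearest protein-coding gene where it was tested, the solid line is 1 and the dashed line 1.5. Intervals are wide, 11 of 12 in HIP and 10 of 11 in EC contain 1.5, and Gm6032 at the top lies below it beside a neighbour with a ratio near 5.

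Among the antisense RNAs, Gm41505 had the most counts and the narrowest interval. The wt HIP libraries lay between 5.33 and 8.71 CPM (median 6.69) and the Ts65Dn HIP libraries between 6.68 and 11.8 (median 9.31). The groups overlapped, with 3 Ts65Dn libraries above the highest wt library, and the ratio was 1.32 (95% interval 1.04 to 1.69, adjusted p = 0.274). The wt EC libraries lay between 3.36 and 4.69 CPM (median 3.68) and the Ts65Dn EC libraries between 3.75 and 7.50 (median 5.44). There, 5 of the 6 Ts65Dn libraries were above all wt libraries and the library labelled replicate 3 was at 3.75, and the ratio was 1.43 (1.15 to 1.78, adjusted p = 0.0757). Without the library labelled Ts65Dn replicate 3 the EC ratio was 1.52 (1.25 to 1.84) and passed the test (adjusted p = 0.0266), and the HIP ratio was 1.39 (adjusted p = 0.154). Kcnj6, which Gm41505 overlaps in part, had ratios of 1.45 (1.17 to 1.79) in HIP and 1.47 (1.25 to 1.73) in EC. It was called in EC only (adjusted p = 0.0953 and 0.0221), and its ratio was 1.57 in both regions without that library.

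Gm10791, antisense within App, the gene of the amyloid precursor protein, had unlike point estimates in the 2 regions. Its wt HIP libraries spanned 0.710 to 1.22 CPM (median 0.909) and its Ts65Dn HIP libraries 0.734 to 2.14 (median 1.36), a ratio of 1.49 (1.06 to 2.11, adjusted p = 0.270). In EC they spanned 0.341 to 0.763 CPM (median 0.524) and 0.372 to 0.974 (median 0.565), a ratio of 1.142 (0.7505 to 1.74). The groups overlapped in both regions, and the ratios of the 2 regions did not differ in the test of the interaction (edgeR, adjusted p = 0.9998). They were 1.55 and 1.22 without the library labelled Ts65Dn replicate 3, neither called. App itself had ratios of 1.48 in HIP and 1.37 in EC and was called in both (adjusted p = 0.0267 and 0.0228), with 1.58 and 1.45 without that library.

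Gm10785, which starts beside Donson and overlaps Cryzl1, a quinone oxidoreductase-like gene, lay at 0.596 to 1.15 CPM in wt HIP (median 0.871) and 1.02 to 1.75 in Ts65Dn HIP (median 1.17), where 3 Ts65Dn libraries were above the highest wt library. Its ratio was 1.38 (1.03 to 1.86) in HIP and 1.32 (0.854 to 2.03) in EC, neither called, next to 1.35 and 1.33 for Cryzl1 and 1.33 and 1.44 for Donson. When Ts65Dn replicate 3 was dropped, the ratios were 1.37 and 1.43 for Gm10785, 1.44 and 1.39 for Cryzl1 and 1.38 and 1.57 for Donson. Gm15964, antisense to Gart, which encodes an enzyme of purine synthesis, passed the filter in HIP only when all libraries were used. There it had a ratio of 1.25 (0.777 to 2.00), Gart had 1.53 and Dnajc28, the other gene it overlaps, had 1.29. In EC the groups overlapped, with 0.144 to 0.471 CPM in wt and 0.135 to 0.390 in Ts65Dn. Without the library labelled Ts65Dn replicate 3 it was tested in both regions, with ratios of 1.21 (0.723 to 2.04) in HIP and 1.008 (0.597 to 1.70) in EC, where Gart had 1.62 and 1.502 and Dnajc28 1.35 and 1.37.

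The member with the highest ratio in both regions was 4930404I05Rik (ENSMUSG00000087354, chr16:91011249-91016743), a processed transcript of 3 exon blocks that leaves the Synj1 start. Its wt HIP libraries lay between 0.225 and 0.811 CPM (median 0.421) and its Ts65Dn HIP libraries between 0.629 and 1.06 (median 0.904). Of the 6 Ts65Dn libraries 4 were above the highest wt library, and the library labelled replicate 3 was among them at 0.865. In EC the wt libraries lay between 0.289 and 0.436 CPM (median 0.401) and the Ts65Dn libraries between 0.357 and 1.07 (median 0.753). Here the library labelled replicate 3 was the lowest, at 0.357, and the other 5, from 0.710 upwards, lay above all wt libraries. The lowest wt library held 6 counts in HIP and 8 in EC, the lowest Ts65Dn library 18 and 10. 4930404I05Rik may thus have passed the filter mainly through the Ts65Dn group in both regions, which favours a high ratio. The ratios were 1.94 (1.29 to 2.91, adjusted p = 0.116) in HIP and 1.93 (1.35 to 2.77, adjusted p = 0.0536) in EC. Without the library labelled Ts65Dn replicate 3 they were 1.94 (1.25 to 3.01, adjusted p = 0.122) and 2.12 (1.58 to 2.87, adjusted p = 0.0124), so that it passed the test in EC. In the edgeR test against 1.5-fold the unadjusted p was 0.189 in HIP and 0.149 in EC with all libraries. It was 0.0250 in EC without the library labelled Ts65Dn replicate 3 and 0.0212 in HIP without wt replicate 6, above 1.5-fold in both. Each of these is 1 of the 12 fits per region that leave out 1 library, picked for its value. Synj1 had ratios of 1.5001 and 1.46 and Paxbp1, the other gene it overlaps, ratios of 1.38 and 1.44, and without the library labelled Ts65Dn replicate 3 Synj1 had 1.62 and 1.57 and Paxbp1 had 1.44 and 1.54. Of the 50-base windows of its transcripts 41.02% also occur in other transcripts, those of Synj1 and Paxbp1.

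B130034C11Rik, on the other side of the Cct8 start, overlaps no gene. The wt HIP libraries spanned 0.983 to 1.63 CPM (median 1.29) and the Ts65Dn HIP libraries 0.865 to 2.04 (median 1.66), where the lowest library was the one labelled replicate 3. In EC the values were 0.604 to 1.29 CPM in wt (median 0.977) and 0.464 to 1.79 in Ts65Dn (median 1.43), and all Ts65Dn libraries except replicate 3 were above the highest wt library. The ratios were 1.21 (0.898 to 1.62) in HIP and 1.35 (0.905 to 2.02) in EC, next to 1.37 and 1.34 for Cct8. Without that library they were 1.31 and 1.52, next to 1.47 and 1.42 for Cct8. The test called Cct8 in both regions (adjusted p = 0.0490 and 0.0309) and B130034C11Rik in neither (adjusted p = 0.573 and 0.414).

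The lincRNA 2810407A14Rik (chr16:87784075-87839293) stands 50729 bases from the nearest coding gene, Bach1, a transcription repressor of haem-responsive genes. Its wt HIP libraries reached from 1.05 to 1.85 CPM (median 1.37) and its Ts65Dn HIP libraries from 1.24 to 2.37 (median 2.21). It was the only member in HIP whose 5 Ts65Dn libraries other than replicate 3 were all above the 6 wt libraries. In EC the values were 0.902 to 1.85 CPM (median 1.23) in wt and 0.929 to 2.42 (median 1.78) in Ts65Dn. The ratios were 1.42 (1.08 to 1.87, adjusted p = 0.213) and 1.39 (1.002 to 1.93, adjusted p = 0.260), beside 1.37 and 1.33 for Bach1, and 1.53 and 1.52 without replicate 3 (adjusted p = 0.0713 and 0.1003), beside 1.43 and 1.43 for Bach1.

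A930006K02Rik, a processed transcript that shares exon sequence with the non-coding Gm49626 on its own strand and lies 15110 bases from Ifnar1, a chain of the type I interferon receptor, had a higher point estimate in EC than in HIP. The wt EC libraries lay between 0.124 and 0.433 CPM (median 0.229) and the Ts65Dn EC libraries between 0.179 and 0.643 (median 0.537), with the library labelled replicate 3 the lowest and the other 5 above all wt libraries. A930006K02Rik may thus have passed the filter in EC mainly through those 5 libraries, which favours a high ratio. In HIP the values were 0.209 to 0.749 CPM in wt (median 0.440) and 0.311 to 0.736 in Ts65Dn (median 0.586), and no Ts65Dn library was above the highest wt library. The ratios were 1.91 (1.143 to 3.18, adjusted p = 0.160) in EC and 1.32 (0.844 to 2.07, adjusted p = 0.581) in HIP, and the test of the interaction did not separate them (edgeR, adjusted p = 0.9998). The ratios were 2.14 (adjusted p = 0.0677) in EC and 1.44 (adjusted p = 0.380) in HIP without the library labelled Ts65Dn replicate 3. Ifnar1 had 1.43 in both regions, and 1.51 in HIP and 1.52 in EC without that library.

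**Figure D4:**
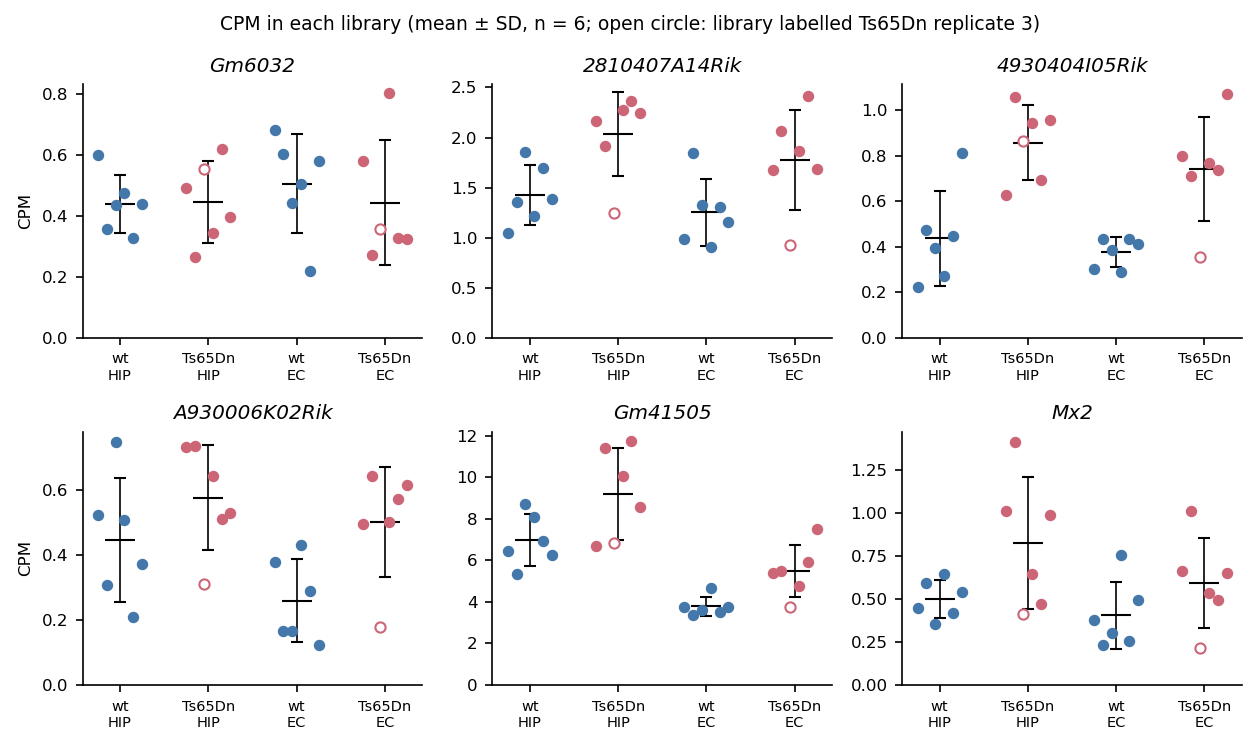
CPM of 6 non-coding genes in every library, by genotype and region, with the mean and SD of 6 libraries; open circles are the libraries labelled Ts65Dn replicate 3. In EC, the 5 other Ts65Dn libraries lie above all wt libraries for 4930404I05Rik, A930006K02Rik and Gm41505, while the groups of Gm6032 overlap in both regions.

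Gm49727, a TEC model that overlaps Cfap298 on the other strand, had the lowest EC ratio of the tested members that are not pseudogenes. It lay at 0.506 to 0.974 CPM in wt HIP (median 0.711) and at 0.766 to 1.20 in Ts65Dn HIP (median 1.01), a ratio of 1.38 (1.04 to 1.83, adjusted p = 0.272). In EC it lay at 0.443 to 0.835 CPM in the wt group (median 0.575) and at 0.321 to 0.861 in the Ts65Dn group (median 0.706), a ratio of 1.10 (0.773 to 1.55), and without the library labelled Ts65Dn replicate 3 the ratios were 1.42 and 1.20. Cfap298, which encodes a protein needed for motile cilia, was called in both regions with ratios of 1.53 and 1.63, and 1.59 and 1.695 without that library.

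Among the pseudogenes, Gm6032 was the only member of the tested ones with an unadjusted p below 0.05 against 1.5-fold, and it was below it in both regions. It is the member nearest to the centromere (chr16:84513051-84514188). Its libraries lay at 0.328 to 0.599 CPM in wt HIP (median 0.436) and 0.265 to 0.619 in Ts65Dn HIP (median 0.443). In EC they lay at 0.218 to 0.683 in wt (median 0.542) and 0.271 to 0.801 in Ts65Dn (median 0.343). The groups overlapped in both regions, with 1 Ts65Dn library above the highest wt library in each. The ratios were 1.02 (0.711 to 1.46) and 0.880 (0.555 to 1.40), and the unadjusted p of the edgeR test against 1.5-fold was 0.0392 and 0.0273. That places 1 of 12 and 1 of 11 tested members below 1.5-fold, as against 84.3% and 85.5% of all genes tested, which are mostly outside the segment, and 13 of 82 and 9 of 80 protein-coding genes of the segment. Without the library labelled Ts65Dn replicate 3 the unadjusted p was 0.0306 in HIP and 0.0503 in EC, where 84.3% and 83.8% of all genes were below 1.5-fold. The call was lost in 7 of the 12 fits that leave out 1 library in each region: in HIP without Ts65Dn replicates 2, 4 or 6 or wt replicates 1, 3, 4 or 6 (unadjusted p up to 0.0983), and in EC without Ts65Dn replicates 2, 3, 5 or 6 or wt replicates 1, 2 or 6 (up to 0.0658). Its closest coding gene is Rbms2 on chromosome 10, an RNA-binding protein gene, with 91.7% identity over 1160 aligned positions, and 7.99% of its 50-base windows are shared with other transcripts.

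The coding gene beside Gm6032 had the highest ratio of the protein-coding genes tested in the segment. This gene, A730009L09Rik, begins 933 bases away on the other strand. In HIP it stood at 0.225 to 0.447 CPM in wt (median 0.343), while 5 Ts65Dn libraries lay between 1.47 and 2.19 and the library labelled replicate 3 was at 0.346. In EC the wt libraries were at 0.144 to 0.569 CPM, the 5 Ts65Dn libraries at 1.48 to 1.92 and the library labelled replicate 3 at 0.107. Its ratios over all libraries were 4.74 (2.76 to 8.13, adjusted p = 0.0139) in HIP and 5.08 (2.48 to 10.4, adjusted p = 0.0236) in EC, both called, and 5.48 and 6.002 without that library.

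Mx2, annotated as a polymorphic pseudogene since common laboratory strains carry a defective copy of this interferon-induced GTPase gene, lay at 0.355 to 0.644 CPM in wt HIP (median 0.495) and 0.415 to 1.41 in Ts65Dn HIP (median 0.817). In EC it lay at 0.235 to 0.757 CPM in the wt group (median 0.342) and 0.214 to 1.01 in the Ts65Dn group (median 0.592). In both regions the library labelled replicate 3 was the lowest of the Ts65Dn group, at 0.415 and 0.214 CPM. The ratios were 1.65 (1.06 to 2.56, adjusted p = 0.278) and 1.47 (0.873 to 2.47), and 1.81 and 1.65 without that library.

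The other pseudogenes are copies of genes outside the Mmu16 segment, and some share sequence with them at the length of a read, so that the source of such reads cannot be told apart. Gm2541 overlaps the start of Cyyr1 on the same strand, with 23.2% of its exon length. It shares 97.0% of its 50-base windows with other transcripts, Dnajb6 of chromosome 5 among them. Its ratios, fitted with no filter on low counts, were 0.831 (0.530 to 1.30) in HIP and 0.725 (0.427 to 1.23) in EC, and those of Dnajb6, a heat shock cochaperone gene, were 1.04 and 1.03. Gm6278, a copy of the ribosomal gene Rplp0, shares 45.0% of its windows and had ratios of 2.18 (0.722 to 6.59) and 1.16 (0.470 to 2.88). Gm46546, a copy of the ribosomal gene Rps21, shares 1 of its 200 windows and was tested in both regions, at 1.27 (0.634 to 2.55) and 1.40 (0.800 to 2.46). Its libraries lay at 0.0788 to 0.610 CPM in wt HIP, 0.104 to 0.648 in Ts65Dn HIP, 0.139 to 0.414 in wt EC and 0.200 to 0.822 in Ts65Dn EC. Rps21, on chromosome 2, was itself called higher in HIP by edgeR, at 1.24 (1.12 to 1.37, adjusted p = 0.0496). In EC it was at 1.13 (0.909 to 1.41, adjusted p = 0.564). For Gm46546, the library labelled Ts65Dn replicate 3 was the lowest of its group in HIP and the highest in EC, and without it the ratios were 1.46 and 1.15. Gm7860, a copy of Rps2, had 49 counts and ratios of 0.735 and 0.698, and Gm2805, a copy of Myl12b, had 31 and ratios of 0.265 (0.0736 to 0.952, adjusted p = 0.514) and 1.25 (0.456 to 3.43).

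Over all 38 members, with no filter, 29 had a fitted ratio above 1 in HIP and 27 in EC, where 52.7% and 49.7% of all genes did, and the median ratios were 1.32 and 1.39. In that fit edgeR called 0 of the 38 in either region, where 0.223% and 0.379% of all genes were called higher, and 10 and 5 were higher at an unadjusted p below 0.05, against 4.9% and 5.77%. At that p 1 member was lower in HIP, the pseudogene Gm2805, and 0 in EC. For the 26 members that failed the filter in HIP the median was 1.27, with 17 above 1, and for the 27 in EC it was 1.39, with 17 above 1. Summed over all 38, the level was 15.7 to 21.2 CPM in wt HIP (median 17.3) and 18.4 to 28.6 in Ts65Dn HIP (median 24.02). It was 11.9 to 13.4 (median 12.3) and 11.5 to 20.04 (median 17.5) in EC, and the lowest Ts65Dn library was replicate 3 in both regions. The ratio of the mean sums was 1.34 in HIP and 1.35 in EC, 1.41 and 1.43 without that library, and 1.35 and 1.30 when Gm41505 was left out of the sum. All 6 Ts65Dn libraries were above all 6 wt libraries for 0 of the 38 members in either region, where 0.49% and 1.02% of the genes with 24 or more counts reached that, and for 17 and 15 of the 91 coding genes of the segment. It was 0 of the 38 in either region for all 6 Ts65Dn libraries below all 6 wt libraries, against 0.834% of the genes in each region. Without the library labelled replicate 3 it was 1 member in HIP (2810407A14Rik) and 4 in EC (B130034C11Rik, 4930404I05Rik, A930006K02Rik and Gm41505), against 1.49% and 1.98% of the genes, and 62 and 59 of the coding genes.

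The 26 members under 240 counts ranged from 31 to 237 counts in all 24 libraries. The lincRNA Gm36001, at 237, entered the test in HIP once the library labelled Ts65Dn replicate 3 was left out, with a ratio of 1.85 (1.09 to 3.12, adjusted p = 0.222). Its wt HIP libraries reached 0.394 CPM (median 0.302), and 4 Ts65Dn HIP libraries were above that. It may thus have passed the filter mainly through the Ts65Dn group, which favours a high ratio. At the counts of the lowest members no ratio can be read. The study's list of triplicated genes also holds non-coding genes that missed the minimum of 24 counts. They are 1110008E08Rik with 20, Rpl31-ps4 with 11, H3f3a-ps2 with 10 and the small nuclear RNA Gm23692 with 2. Mx1, a polymorphic pseudogene in that list, had a mean of 0.227 CPM. It is not a member here because of its biotype in GENCODE, not because of the minimum of counts. The list also names the member 2410124H12Rik, which overlaps the chloride channel gene Clic6 on the same strand. It begins 6994 bases before the Clic6 start. 2410124H12Rik had 14 counts in wt HIP and 17 in Ts65Dn HIP, and 0 and 2 in EC. Clic6 is itself a choroid plexus gene and is part of the marker list used here. The summed choroid plexus markers were above the highest EC library in every HIP library, but narrowly, with 56.1 against 51.0 CPM. For Ttr alone the regions overlapped, with 19.0 CPM in the lowest HIP library and 39.3 in the highest EC library. The part of the choroid plexus in the counts of 2410124H12Rik was not tested. Gm29880 showed the same regional contrast, with 22 and 30 counts in HIP and 1 and 0 in EC. Mir155hg, the host transcript of miR-155, a microRNA of immune cells, had 10 and 10 counts in HIP and 3 and 12 in EC. The microRNA gene Mir155 inside it had 0 counts. Libraries of long RNA are not made to hold mature microRNAs. Of the 28 small RNA genes of the segment, 6 had at least 1 count, the highest 8 in total. Mir802 had 1 and Gm23692, named above, had 2. The mature miR-155-5p is shown because its locus is in 3 copies while these counts do not measure it (RefSeq, GRCm38.p6, chr16:84714143-84714165, + strand, seed of bases 2 to 8 in capitals).
mmu-miR-155-5p: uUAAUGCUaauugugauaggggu

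To see whether the members differ between the regions, HIP was compared with EC in wt mice in a fit with 1 term per mouse. Of 13 members tested 4 were called, where 58.6% of all genes were, and all 4 were higher in HIP. Gm41505 was higher by 0.87 on the log2 scale (SE 0.13, adjusted p = 2.4e-05), with 6.96 ± 1.25 CPM in HIP and 3.78 ± 0.470 in EC (SD, n = 6). Gm10791 was higher by 0.81 (SE 0.24, adjusted p = 0.00771), A930006K02Rik by 0.77 (SE 0.30, adjusted p = 0.0379) and Gm10785 by 0.73 (SE 0.25, adjusted p = 0.0210). Of these, A930006K02Rik missed the threshold without wt replicate 2, 3 or 6 (adjusted p = 0.0746, 0.197 and 0.0928) and Gm10785 without wt replicate 2 or 6 (adjusted p = 0.0544 and 0.0806). At an unadjusted p, 62.6% of all genes differed.

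Their coding neighbours did not all go the same way. Kcnj6 was also higher in HIP, by 0.70 (SE 0.07, adjusted p = 4.9e-07). App, in whose introns Gm10791 lies, was lower in HIP, with a difference of -0.27 (SE 0.04, adjusted p = 2.6e-05), as were Cryzl1 at -0.12 (SE 0.05, adjusted p = 0.0472) and Ifnar1 at -0.10 (SE 0.04, adjusted p = 0.0229). The test of the interaction, which asks whether the ratio of Ts65Dn to wt differed between HIP and EC, called 0 of the 13 members with edgeR and 0 with DESeq2, and 0 of the 13 had an unadjusted p below 0.05. Over all 18109 genes it called 0, with 742 (4.1%) below 0.05 before adjustment.

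The coding genes that overlap or neighbour the members give a reference for the RNA ratio at each place, which is not a measure of copy number. Of 36 such genes 32 were tested, and 19 were called in HIP and 25 in EC. With the library labelled Ts65Dn replicate 3 included, their median ratios were 1.41 and 1.43. The ratios ran from 1.26 to 4.74 in HIP and from 1.24 to 5.08 in EC. As a reference outside the segment, 29 well-known non-coding genes such as Meg3, Malat1, Snhg11 and Miat were taken, of which 26 were tested per region. Their median ratio was 0.999 in HIP and 1.03 in EC. The only one called was Bc1, the brain cytoplasmic RNA of neuronal dendrites, with ratios of 3.27 (adjusted p = 0.000486) and 2.73 (adjusted p = 0.0136).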

How the data were processed

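RNA was extracted from HIP and EC of 12 male mice and sequenced as single-end 50-base reads. The labels name polyadenylated RNA and a stranded mRNA kit, whereas the methods name a total RNA kit with ribosomal depletion, and RNA without a polyA tail may thus be under-represented. The authors aligned the reads with Hisat2 to GRCm38 (Ensembl release 99) and deposited raw counts per gene made with HTSeq-count. The strand setting and the versions of Hisat2 and HTSeq-count are not given in the sources used here, and the submitters' processing notes name bcl2fastq 2.17.1.14. All 24 columns entered the fits, and each row named a gene. The authors' 4 tables of their own comparisons (mean normalized counts, fold changes, scores and p-values) were not used.

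Positions and biotypes came from GENCODE vM21 for GRCm38, which held 99.6% of the 55385 identifiers. The members and lists were chosen with earlier results of these data known. Ts65Dn was compared with wt within each region with edgeR 4.0.16 (R 4.3.3): filterByExpr, TMM scaling, glmQLFit and glmQLFTest, Benjamini-Hochberg adjustment over all genes, called at adjusted p below 0.05. Intervals are 95%. The test against 1.5-fold added the logarithm of 1.5 to the offsets of Ts65Dn libraries and is unadjusted. HIP and EC were compared, with the interaction, in one fit of all 24 libraries with 1 term per mouse, since the titles give the mouse of each library. CPM used TMM library sizes, and RPKM is CPM per kilobase of merged exon. Alternatives were DESeq2 1.42.0, DESeq2 size factors, other filters, a replicate block and each library or mouse left out. Windows of 50 bases were matched exactly against all other GENCODE transcripts on both strands, and pseudogenes against coding transcripts with blastn. The fits were tested on simulated data with 200 changed genes.

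Named were the members called, the 10 with the highest mean CPM, the 5 highest and 5 lowest ratios per region, those off 1.5-fold, up to 5 called between regions in each direction, the non-coding genes on the study's list of triplicated genes, Mir155, Mir155hg and Mir802, and the coding gene that overlaps or neighbours each. Gm29880, Gm2541, Gm6278, Gm7860, Gm2805, Gm30881 and Gm36001 were named after their values were seen. Replicates are separate mice. Low counts limit the precision, and intervals cover the spread between libraries only. One marker list for the cortex is not reported here.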

Additional observations from a re-analysis of the deposited data

Results flagged for a closer look

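Among the 6 libraries of a group, 3 of 54 groups of values held a library that stood apart by Dixon's criterion, where chance alone flags about 1 in 20 groups. In EC, the library labelled Ts65Dn replicate 3 was the lowest of its group for B130034C11Rik, at 0.464 CPM with the next library at 1.35, and for A930006K02Rik, at 0.179 CPM with the next at 0.496. For Gm41505 in wt EC, replicate 4 was the highest, at 4.69 CPM with the next library at 3.77. The median ratio of the tested members in EC for the library labelled Ts65Dn replicate 3, 0.728, lay below the lowest wt library at 0.848.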

How the results depend on the processing

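Of 148 alternative values for the counts and medians, 124 stayed within 1.5 times the main count or within the spread of the main median. That spread was the SD of the median ratios of the Ts65Dn libraries, 0.194 in HIP and 0.328 in EC. It includes the library labelled Ts65Dn replicate 3 and is thus a wide margin, so staying within it says little about the medians. The number of members called was 1 in HIP and 1 in EC with DESeq2, 2 in EC at an adjusted p below 0.1, and 0 to 2 in EC with 1 library left out, where 2 was reached without Ts65Dn replicate 3 (4930404I05Rik and Gm41505). The number off 1.5-fold was 1 in each region. It was 3 and 3 with no filter on low counts, 0 and 0 with at least 10 counts in every library and without pseudogenes, 2 in EC with the replicate block, and 0 to 1 in HIP and 0 to 3 in EC with 1 library left out. In EC without Ts65Dn replicate 3 the 1 such member was 4930404I05Rik, above 1.5-fold, in place of Gm6032, and in HIP without wt replicate 6 it was 4930404I05Rik too. With wt replicate 3 left out the 3 in EC were Gm6032, Gm2541 and Gm49727. The number that differed between HIP and EC was 7 with no filter and 3 to 5 with 1 mouse left out, and the number with an interaction was 0 throughout. The median ratio ran from 1.30 to 1.44 in HIP and from 1.27 to 1.47 in EC with 1 library left out. The log2 ratio of Gm6032 in HIP ran from -0.087 to 0.15 with 1 library left out and changed sign to -0.047 without Ts65Dn replicate 3, -0.087 without Ts65Dn replicate 5, -0.031 without wt replicate 2 and -0.042 without wt replicate 5, and the cause was not tested. Replicate numbers shared between genotypes did not pair the mice: the correlation of same-numbered libraries' deviations ran from -0.22 to 0.17, and a library correlated best with its own number in 1 of 6 cases in each region. With the replicate block 0 members were called in either region. Without the term for the mouse, 3 members differed between HIP and EC.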
